A study of Mus musculus with 12 samples.

Results

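The simple keratins Krt7, Krt8, Krt18, Krt19, Krt20 and Krt23 were followed across 4 sorted bins of mouse taste epithelium. They were taken by symbol, 6 of the 52670 gene symbols in the deposited tables, and all 6 were among the 17432 genes with enough counts to be tested. RNA came from the epithelium of the circumvallate papilla, a taste bud-rich structure on the rear of the tongue. The donors were adult mice of 11 to 12 weeks with the genotype Sox2GFP, in which green fluorescent protein (GFP) reports the transcription factor Sox2. Cells were sorted by GFP brightness into the bins Low, MedLow, HiMed and High, with 3 libraries each and 12 in all. Each replicate pooled between 7 and 13 mice.

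All bins shared the genotype, the age, the enzymatic peeling and dissociation of the epithelium, and the selection of polyadenylated RNA. GFP-negative cells had been discarded at the sort, and no bin stands for them. The sources used here do not give how the reporter allele was built, or the sorting day or sequencing batch of a library. Nothing in the labels names separate mice beyond the pools. The p-values measure the spread between the pooled libraries of a bin, and unless stated the test did not pair libraries by replicate number. The title of the series sets Sox2 level against the competence of lingual progenitors to make taste cells, and the keratins of taste buds bear on which bins carried taste bud RNA.

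Keratins build intermediate filaments from heterodimers of a type I and a type II chain. Krt7 and Krt8 are type II chains, and Krt18, Krt19, Krt20 and Krt23 are type I chains. The simple keratins are known from single-layered and glandular epithelia, and in the tongue they set taste bud cells apart from the stratified epithelium around them, which is built on Krt5 and Krt14 in its basal layer and on Krt4 and Krt13 above it. Krt8 is a widely used label of taste bud cells, with Krt18 as its usual partner. Krt20 is also known from Merkel cells, intestinal surface cells and the surface cells of the bladder lining.

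Library totals ran from 25.7 M to 55.6 M estimated counts (M, 1e+06 counts), and libraries of 1 bin differed by more than counting noise. Levels are given as CPM (counts scaled to a common library total, with TMM factors that even out library composition) where bins are compared, and as the deposited TPM (transcript abundance corrected for transcript length and scaled to a fixed total) where genes are compared with each other. A gene was called where edgeR's quasi-likelihood test gave an adjusted p below 0.05 after Benjamini-Hochberg correction over all genes tested, and every adjusted p of a single gene is from that test unless another is named. Values with ± are the mean and SD over n = 3 libraries of a bin. The sort held in the RNA, with Sox2 at 70.3 ± 6.17 CPM in Low and 98.0 ± 1.20 in MedLow, then 171 ± 2.64 in HiMed and 373 ± 12.8 in High, and the reporter transcript eGFP at 84.2 ± 5.96, 145 ± 9.25, 246 ± 19.5 and 538 ± 15.7 CPM in the same order. The 6 bin comparisons share libraries, so they are not separate evidence.

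High cells carried more of all 6 simple keratins than Low cells, by 2.04-fold for Krt23 up to 63.0-fold for Krt20. Below High the profiles differed. Krt8 and Krt18 were lower in MedLow than in Low, Krt19 and Krt20 had their smallest means in Low, and Krt23 had its largest mean in HiMed and was lower in High than there. All 6 differed among the 4 bins, where 41.8% of all genes tested did, with adjusted p between 6.31e-09 for Krt20 and 6.59e-05 for Krt23. Each of Krt7, Krt8, Krt18, Krt19 and Krt20 was called higher in High than in each of the other 3 bins, a pattern that 8.31% of all genes tested showed. In bulk libraries of sorted cells, fewer cells of a type and less RNA per cell cannot be told apart, so these are levels of the sorted mixture.

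**Figure D1:**
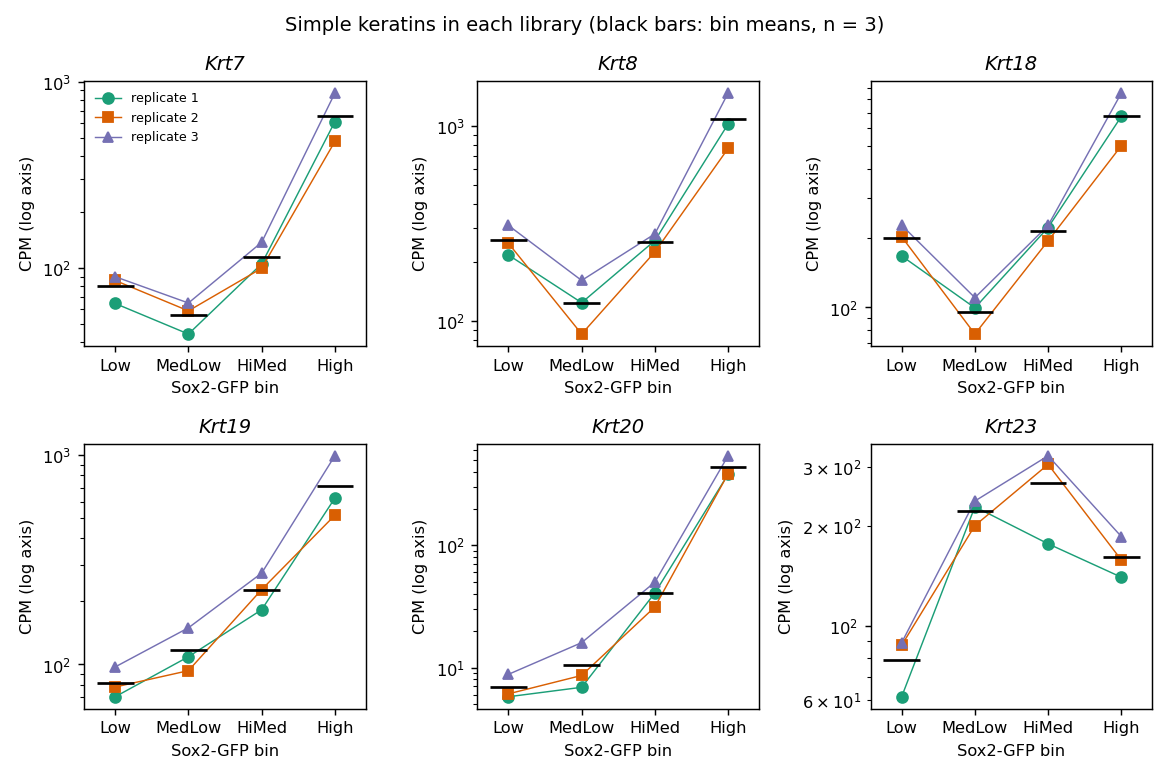
CPM on a log axis (each panel has its own range) of the 6 simple keratins by Sox2-GFP bin, with 1 point per library, lines joining libraries of the same replicate number and black bars at bin means (n = 3). High is the top bin of every panel except Krt23, whose mean is largest in HiMed (269 CPM), and the replicate 3 triangle is on top in every bin of every panel.

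Krt8 stood at 218, 251 and 309 CPM in the Low libraries, at 124.5, 86.1 and 162 in MedLow, at 259, 226 and 280 in HiMed and at 1020, 765.5 and 1469 in High. The High libraries lay above all 9 others, the MedLow libraries lay below those of Low and HiMed, and Low and HiMed overlapped. High over Low gave a log2 fold change of 2.06 (SE 0.24, adjusted p = 1.31e-05). Krt8 was lower in MedLow than in Low (log2 fold change -1.06, SE 0.24, adjusted p = 0.0157), a call that rested on single libraries. The adjusted p was 0.0711 without Low replicate 3, 0.0588 without MedLow replicate 1 and 0.0617 without MedLow replicate 2. HiMed over Low gave -0.02, with a 95% interval of -0.53 to 0.48, so a difference of that size in either direction was not excluded.

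Krt18, the type I partner of Krt8, followed the same course. It stood at 167, 203 and 228 CPM in the Low libraries, at 99.6, 76.7 and 110.3 in MedLow, at 222, 195 and 227 in HiMed and at 675, 504 and 853 in High. Again the High libraries were on top and the MedLow libraries at the bottom, with Low and HiMed overlapping. High over Low was 1.76 (SE 0.18, adjusted p = 3.60e-06) and MedLow over Low was -1.06 (SE 0.18, adjusted p = 0.00265). The MedLow call of Krt18 held without each library in turn, with adjusted p of at most 0.014.

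The Krt8 and Krt18 genes lie side by side on chromosome 15, and their proximal promoters are shown since their levels moved together. The sequences are the 250 bases before each gene's start in RefSeq (build GRCm38.p6, 5′ to 3′ on the gene's strand), with capitals marking matches on either strand to 5 motifs that were searched: TATAAA (a core promoter box), GGGCGG (the Sp1 core), TGANTCA (AP-1), CATTGT (a Sox core) and CACCC (a Klf core). Krt8 is taken from chr15:102004343-102004592 on the minus strand and Krt18 from chr15:102027966-102028215 on the plus strand.
Krt8: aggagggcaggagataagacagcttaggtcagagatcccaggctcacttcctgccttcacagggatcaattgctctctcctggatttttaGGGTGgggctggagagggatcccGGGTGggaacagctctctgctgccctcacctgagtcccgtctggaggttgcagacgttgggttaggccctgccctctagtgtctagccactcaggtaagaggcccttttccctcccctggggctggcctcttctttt
Krt18: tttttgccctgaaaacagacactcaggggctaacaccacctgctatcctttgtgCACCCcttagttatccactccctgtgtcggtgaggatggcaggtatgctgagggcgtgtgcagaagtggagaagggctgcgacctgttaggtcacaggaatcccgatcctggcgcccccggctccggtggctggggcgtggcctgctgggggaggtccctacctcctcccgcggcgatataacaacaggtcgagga
Both windows held CACCC, with 2 matches before Krt8 and 1 before Krt18, and 52.0% of 32851 RefSeq promoter windows of the same length hold it. None of the other 4 motifs occurred in either window. A match is a description of letters and not a bound site.

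Krt7, the other type II chain, known from glandular, ductal and bladder epithelia, rose more steeply at the bright end. It stood at 64.6, 85.8 and 89.9 CPM in the Low libraries, at 44.3, 59.0 and 65.0 in MedLow, at 105.4, 99.8 and 137.5 in HiMed and at 610.1, 478 and 869 in High. The HiMed libraries were already above those of Low, and the High libraries lay above all others. High over Low was 3.03 (SE 0.22, adjusted p = 1.85e-07) and High over HiMed was 2.51 (SE 0.22, adjusted p = 4.89e-06). HiMed over Low was 0.51 (SE 0.21) and was not called (adjusted p = 0.0995), though it was with the replicate number as a block (adjusted p = 0.0162). MedLow over Low was -0.51 and likewise was called only with the block (adjusted p = 0.0373 with it and 0.213 without it).

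Krt19, a short type I chain that is also known from progenitor cells of other epithelia, climbed in steps. It stood at 70.1, 78.1 and 97.4 CPM in the Low libraries, at 109, 93.4 and 149.7 in MedLow, at 183, 228 and 273 in HiMed and at 624, 517 and 993 in High. Low and MedLow overlapped, and each bin above MedLow had all its libraries above the bin before it. High over Low was 3.12 (SE 0.25, adjusted p = 4.10e-07), High over HiMed 1.64 (SE 0.24, adjusted p = 2.72e-04) and HiMed over MedLow 0.96 (SE 0.24, adjusted p = 0.0158). That last call was lost without MedLow replicate 1 (adjusted p = 0.0623), MedLow replicate 2 (0.0773) or HiMed replicate 3 (0.0735). MedLow over Low was 0.52 and was called only with the replicate block (adjusted p = 0.0197 with it and 0.276 without it).

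Krt20 had the widest range of the 6. It stood at 5.77, 6.09 and 8.80 CPM in the Low libraries, at 6.89, 8.62 and 15.98 in MedLow, at 40.8, 31.3 and 49.96 in HiMed and at 381.5, 385 and 540.1 in High. Its High libraries lay far above the rest, its HiMed libraries stood between, and Low and MedLow overlapped. High over Low was 5.98 on the log2 scale (SE 0.33, 95% interval 5.27 to 6.68, adjusted p = 1.25e-08), which placed it at rank 215 from the top of the 17432 genes. High over HiMed was 3.42 (SE 0.28, adjusted p = 3.39e-06) and HiMed over MedLow 1.96 (SE 0.28, adjusted p = 4.13e-04). MedLow over Low was 0.60, which was called only with the replicate block (adjusted p = 0.0331 with it and 0.316 without it).

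Krt23, one of the less studied type I chains, ran differently. It stood at 61.2, 87.4 and 89.0 CPM in the Low libraries, at 228, 200.3 and 237.5 in MedLow, at 177, 306 and 325 in HiMed and at 140.1, 158 and 186 in High. Low was the lowest bin with no overlap, and HiMed replicate 1 sat apart from the other HiMed libraries and inside the range of High. High over Low was 1.03 (SE 0.20, adjusted p = 0.00107), HiMed over Low 1.77 (SE 0.21, adjusted p = 3.01e-05) and MedLow over Low 1.49 (SE 0.21, adjusted p = 5.78e-04). Krt23 was lower in High than in HiMed by the test (log2 fold change -0.74, SE 0.20, adjusted p = 0.0178). That call was lost without HiMed replicate 2 (adjusted p = 0.0678), HiMed replicate 3 (0.0831) or High replicate 1 (0.0697), and without HiMed replicate 1 the log2 fold change was -0.97. High over MedLow was -0.46 with no overlap of libraries and was not called (adjusted p = 0.088), though it was with the replicate block (adjusted p = 0.0179).

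Krt20 and Krt23 are neighbours on chromosome 11, and their promoters are shown because these adjacent genes had the least alike profiles of the 6. The windows are again 250 bases of RefSeq, from chr11:99438154-99438403 and chr11:99493121-99493370, both on the minus strand, with the same motifs in capitals.
Krt20: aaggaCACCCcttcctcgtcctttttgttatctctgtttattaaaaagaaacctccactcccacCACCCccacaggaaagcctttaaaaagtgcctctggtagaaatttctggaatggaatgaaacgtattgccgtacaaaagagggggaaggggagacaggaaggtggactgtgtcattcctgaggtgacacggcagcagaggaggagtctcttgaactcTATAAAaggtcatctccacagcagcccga
Krt23: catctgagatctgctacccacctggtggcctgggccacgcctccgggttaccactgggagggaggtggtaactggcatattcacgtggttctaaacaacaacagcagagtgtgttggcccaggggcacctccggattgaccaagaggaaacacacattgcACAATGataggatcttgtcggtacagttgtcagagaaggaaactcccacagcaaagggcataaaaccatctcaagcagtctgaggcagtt
The Krt20 window held 1 TATAAA, which 12.4% of the RefSeq windows hold, and 2 CACCC. The Krt23 window held 1 CATTGT, read on the opposite strand as ACAATG, which 10.7% of the windows hold, and no CACCC. Of the 6 genes, 5 had a promoter entry, and the Krt7 window held 4 GGGCGG, which 32.7% of the windows hold, and 1 CACCC. The AP-1 motif TGANTCA, found in 6.75% of the windows, was in none of the 5.

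In High over Low all 6 genes were called higher, where 20.1% of all genes tested were, and no High library overlapped a Low library for any of them (25.6% of all genes in that direction). Their median log2 fold change was 2.55, beside -0.01 over all genes tested. Against MedLow, High was higher for 5 of 6 (18.2% of all genes), with log2 fold changes of 2.60 for Krt19, 2.83 for Krt18, 3.13 for Krt8, 3.54 for Krt7 and 5.38 for Krt20. Against HiMed, 5 of 6 were higher (10.6% of all genes) and Krt23 was lower (11.6%), with a median of 1.87 beside -0.01 over all genes.

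**Figure D2:**
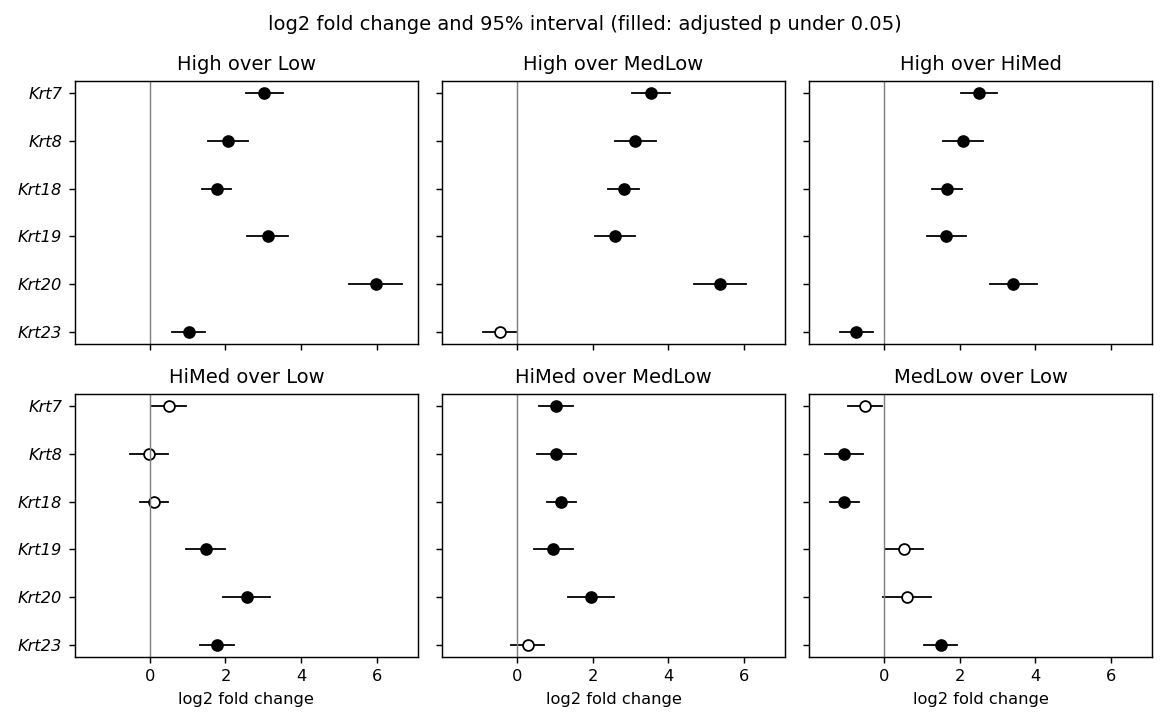
log2 fold changes (points) and 95% intervals (lines) of the 6 simple keratins in each of the 6 bin comparisons, with filled points at an adjusted p under 0.05 in edgeR's quasi-likelihood test. Krt20 lies farthest right in every comparison with High, at 5.98 over Low, and Krt23 lies left of 0 in High over HiMed at -0.74.

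Below High the 6 genes split. HiMed over Low was called for Krt19, Krt20 and Krt23, 3 of 6 higher where 12.4% of all genes were, and was not called for Krt7, Krt8 and Krt18. HiMed over MedLow was called higher for 5 of 6 (7.38% of all genes), with log2 fold changes of 1.03 for Krt7, 1.04 for Krt8 and 1.17 for Krt18, while Krt23 gave 0.28 with a 95% interval of -0.15 to 0.71. MedLow over Low was higher for Krt23 only (4.08% of all genes) and lower for Krt8 and Krt18 (2.52% of all genes). With the replicate block, MedLow over Low was higher for 3 of 6 (Krt19, Krt20 and Krt23), where 5.17% of all genes were with that block, and lower for 3 (Krt7, Krt8 and Krt18), where 3.36% were.

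The order of the bins differed between the genes accordingly, with steps called here by the test without the replicate block. By mean CPM, Krt7 and Krt18 ran MedLow, Low, HiMed and High, and Krt8 ran MedLow, HiMed, Low and High. In Krt7 only the step into High was called, in Krt18 the first and last steps, and in Krt8 the step out of MedLow and the step into High. Krt19 and Krt20 followed the sort order, with only the step between Low and MedLow not called. Krt23 ran Low, High, MedLow and HiMed, and only its step out of Low was called. With the replicate block, the other steps of Krt7 and the steps between Low and MedLow of Krt19 and Krt20 were called too. So was the step between High and MedLow of Krt23.

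Per transcript length, the most abundant of the 6 changed with the bin. In Low, Krt18 (239 TPM) and Krt8 (218 TPM) led, with Krt20 last at 5.90 TPM. In MedLow, Krt23 led at 235 TPM, ahead of Krt19 at 169.5 TPM. HiMed had Krt19 at 349 and Krt23 at 307 TPM on top by mean. In HiMed replicate 1, however, Krt18 led at 289.7 TPM, above Krt19 at 271.9 and Krt23 at 209 TPM. In High, Krt19 (1193 TPM), Krt8 (1053 TPM) and Krt18 (924 TPM) were the most abundant, followed by Krt7 at 595 and Krt20 at 429 TPM, and Krt23 was last at 199.6 TPM. The SDs in High were wide, at 428 TPM for Krt19 and 358 TPM for Krt8. Within each High library, however, Krt19 stood above Krt8 and Krt8 above Krt18. That order was not tested.

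The composition of the simple keratin pool shifted with these levels. Krt23 made up 11.8% of the 6 genes' summed TPM in Low and 35.3% in MedLow, but 23.5% in HiMed and 4.72% in High, with no overlap between bins. Krt20 made up 0.807%, 1.29%, 2.86% and 9.97% in the same order. Together the 6 genes held 1.51% ± 0.190 of all keratin TPM in Low and 1.13% ± 0.176 in MedLow, then 2.35% ± 0.343 in HiMed and 10.9% ± 4.25 in High, where single libraries ranged from 6.79% to 15.3%. These shares are descriptions and carry no test.

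**Figure D3:**
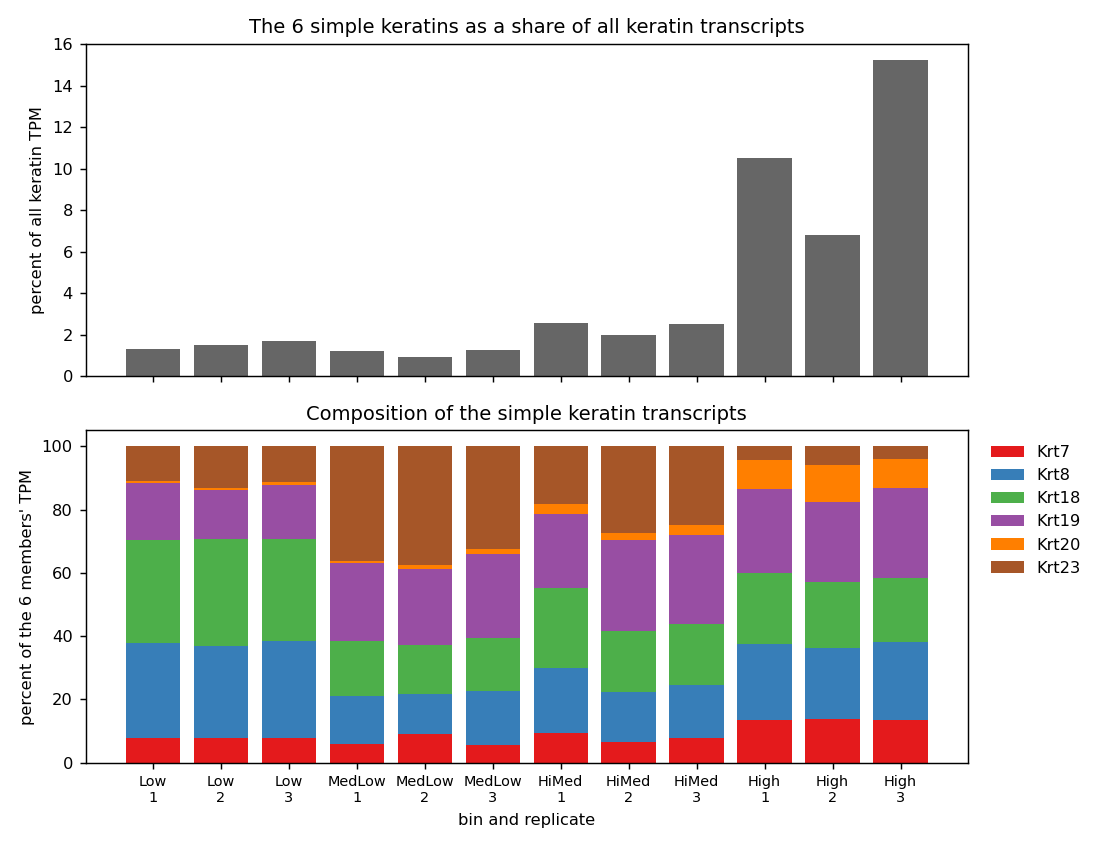
Upper bars give the summed TPM of the 6 simple keratins as a percent of the TPM of all keratin genes in each of the 12 libraries, and lower stacked bars give each gene's percent of that sum. The share of all keratins is highest in the 3 High libraries (6.79% to 15.3%), and within the pool Krt23 is widest in MedLow (mean 35.3%) and Krt20 in High (mean 9.97%).

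Krt8 and Krt18 transcripts stayed near parity in every bin. Krt8 per Krt18 in TPM was 0.914 ± 0.0506 in Low and 0.904 ± 0.123 in MedLow, with 0.840 ± 0.0294 in HiMed and 1.13 ± 0.0847 in High. The High libraries, from 1.07 upward, lay above all others, which reached at most 1.04. Across all 6 genes, type II per type I transcripts came to 0.608 ± 0.0223 in Low but 0.278 ± 0.0146 in MedLow, with 0.348 ± 0.0730 in HiMed and 0.596 ± 0.0241 in High. High and Low overlapped in this ratio, although the 6 genes summed to 4393 TPM in High and 727 TPM in Low. Krt7 per Krt8 was 0.261 ± 0.0116 in Low and 0.472 ± 0.212 in MedLow, with 0.445 ± 0.0306 in HiMed and 0.572 ± 0.0343 in High. The highest MedLow library, at 0.714, lay above every High library, which reached at most 0.611. Counts of the pseudogene Krt8-ps came to at most 0.224% of those of Krt8 in any library, so a split of reads between these near copies was small as counted.

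Replicate 3 was the highest library of its bin for all 6 genes in all 4 bins, which 2.63% of all genes tested showed. In High, replicate 3 exceeded the mean of the other libraries by 1.25-fold for Krt23 up to 1.74-fold for Krt19. All 6 genes kept their High over Low call without High replicate 3 and without every other library in turn, with adjusted p of at most 0.00609. The summed level of 6 taste bud genes other than keratins was likewise highest in replicate 3 of each bin, and in High the leukocyte list was too (128, 141 and 323 CPM in replicates 1, 2 and 3). Most of that leukocyte sum was Lyz2, at 99.9, 114 and 303 CPM. Of its other genes, H2-Ab1 was lowest in replicate 3 (15.4 CPM) and Cd68 highest in replicate 2 (5.79 CPM). Ptprc was counted only in replicate 3 (0.239 CPM), and Cd3e was at 0. The part of such differences between pools in the keratin levels was not tested.

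Other genes of taste buds moved with the simple keratins in part. Of 6 general taste bud genes other than keratins, 5 were higher in High than in Low (20.1% of all genes) and 1 was not called. Their median log2 fold change was 1.84. Among them, the potassium channel gene Kcnq1 had a log2 fold change of 2.96, the claudin genes Cldn7 and Cldn4 had 2.92 and 1.97, and the adhesion gene Epcam had 1.71. Their summed level ran from 445 to 559 CPM over the Low libraries, from 452 to 612 in MedLow, from 744 to 981 in HiMed and from 1575 to 2186 in High. In MedLow over Low the list's median log2 fold change was -0.19, beside a median of 0.0028 for the 6 simple keratins. Those ranged from -1.06 for each of Krt8 and Krt18 to 1.49 for Krt23.

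Markers of the taste cell types split. Over all genes tested, 20.1% were higher in High than in Low and 21.2% were lower. Of 4 type I (glia-like) cell genes, 3 were higher in High than in Low, namely Kcnj1 (9.74), Oxtr (7.64) and Entpd2 (3.37), and the glutamate transporter gene Slc1a3 was lower (-9.24). In Low, Kcnj1 had 6 counts, all in replicate 3, and Oxtr had 7, all in replicate 1. In High, Slc1a3 had 12 counts, all in replicate 2. The sizes of those fold changes are therefore uncertain. Of 5 taste precursor genes, 4 were higher, namely Shh (9.63), Prox1 (3.60), Hes6 (3.48) and Foxa2 (2.72), and Foxa1 was lower (-1.34). Shh had only 17 counts over the Low libraries, so the size of its fold change is uncertain too. Summed levels in High against Low ran from 204 to 367 against 63.0 to 74.0 CPM for the type I list and from 802 to 915 against 273 to 284 CPM for the precursor list.

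Genes of type II cells, which detect sweet, bitter and umami, went the other way, with 8 of 12 lower in High than in Low (21.2% of all genes) and 4 not called. They included Rgs21 (-3.42), Tas1r2 (-3.29), Tas1r3 (-2.35) and Gnat3 (-2.12), and the list summed to 429 to 508 CPM in High and 867 to 1091 CPM in Low. Itpr3 made up most of both sums, at 356 ± 17.3 CPM in High and 682 ± 41.9 CPM in Low. Of 8 genes of type III (sour) cells, 5 were lower, including Pkd1l3 (-2.94), Snap25 (-2.29) and Ddc (-1.88), and the proton channel gene Otop1 was higher (4.05). Their sums overlapped, at 108 to 231 CPM in High and 178 to 285 CPM in Low, but the other 7 genes without Otop1 summed to 32.4 to 57.8 CPM in High and 171.5 to 274 CPM in Low. The part that any of these lists plays in the keratin differences was not tested.

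**Figure D4:**
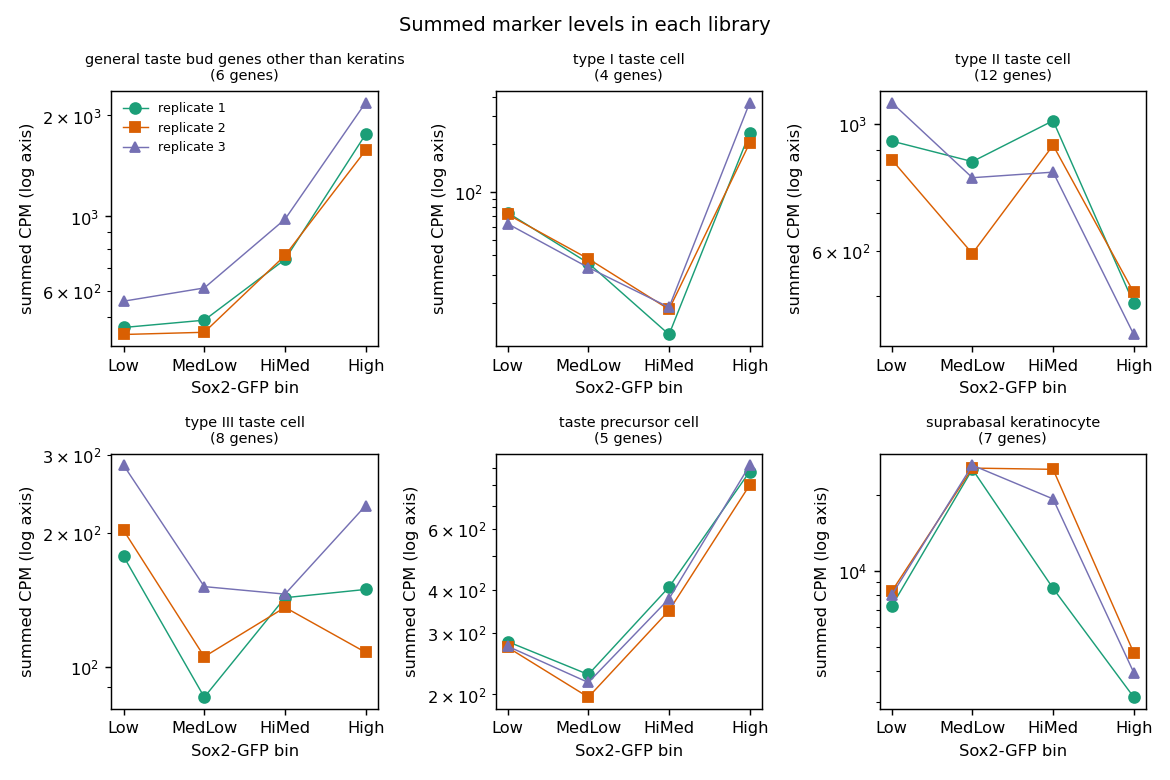
Summed CPM on log axes (each panel has its own range) of 6 marker lists by Sox2-GFP bin, 1 point per library, with lines joining libraries of the same replicate number. General taste bud, type I and precursor sums are highest in High, the type II sum is lowest there (429 to 508 CPM), and the suprabasal sum of HiMed replicate 1 (8517 CPM) lies apart from the other HiMed libraries.

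Several cell types other than taste cells express simple keratins, and their markers were read beside the keratins. In High over Low, 20.1% of all genes tested were called higher and 21.2% lower. Of 6 Merkel cell genes, which matter for Krt20, Pou4f3 was at 0 in all 12 libraries, Atoh1 was at 0 in all bins but HiMed, where it averaged 0.0638 CPM, and Isl1 was at 0 in High. Of the 4 tested, 2 were lower in High than in Low (Piezo2 at -3.30, and Isl1, at least 69.3-fold lower taking 3 counts over the bin as the floor) and 2 were not called. The list summed to 13.2 to 14.9 CPM in High and 56.4 to 61.0 CPM in Low, most of it Piezo2 in Low. Without Piezo2 it summed to 8.83 to 9.57 CPM in High and 7.18 to 11.2 CPM in Low, nearly all of it Insm1, which was not called. The part of Merkel cells in the Krt20 levels was not tested. Of 9 genes of the von Ebner glands and their ducts, whose lining also uses simple keratins, 2 were higher in High than in Low (Cftr at 4.14 and Aqp5 at 3.84) and 4 were lower (Muc5b at -8.56, Dmbt1 at -6.68, Bpifb1 at -4.43 and Amy1 at -3.28). Their sums were 562 to 1001 CPM in High and 979 to 2494 CPM in Low. Ltf, which was not called, made up most of the High sums, at 441, 636 and 768 CPM in replicates 1, 2 and 3. It stood at 247.5 to 425 CPM in Low. In High, Bpifb1 and Amy1 came mostly from replicate 2, at 50.8 and 19.2 CPM. The other High libraries held at most 0.419 CPM of Bpifb1 and 0.976 CPM of Amy1, so the sizes of both fold changes leaned on that library.

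Genes of leukocytes, fibroblasts, endothelial cells and Schwann cells were read in the same way, beside the same shares of all genes. The leukocyte list summed to 128, 141 and 323 CPM in the High libraries and 54.5 to 65.8 CPM in Low. Lyz2 made up most of it in High and was alone called higher (2.40), and Cd3e was at 0 throughout. The fibroblast list summed to 8.37 to 17.4 CPM in High and 591 to 632 CPM in Low, where Dcn made up most of it and Lum was at 0, and of the 3 tested Dcn was lower (-6.45), Pdgfra higher (1.16) and Col1a1 not called. Of the tested Schwann cell genes 1 of 2 was lower in High (Sox10, -7.59, an uncertain size with 5 counts over the High libraries). The 1 tested endothelial gene, Pecam1, gave -0.08 and the list summed to at most 1.98 CPM in any library.

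Markers of the stratified epithelium were read beside Krt23. Of 7 suprabasal keratinocyte genes, 5 were higher in MedLow than in Low, where 4.08% of all genes were, and 2 were not called. Their summed level ran from 7230 to 8274 CPM in Low, from 25290 to 26240 in MedLow and from 3149 to 4721 in High. In HiMed it was 8517 CPM in replicate 1, 25270 in replicate 2 and 19280 in replicate 3, so the HiMed library with the lowest Krt23 also had the lowest suprabasal sum. Krt19 was lowest in that library too. In High over Low, 4 of the 7 were lower (Dsg1a -4.94, Krt1 -4.61, Krt13 -3.06 and Krt4 -0.76) and 2 were higher (Sprr1a 3.75 and Ivl 2.85), while Krt23 was higher. Over all genes tested 21.2% were lower and 20.1% higher there. The part of suprabasal cells in the Krt23 levels was not tested. All 7 basal keratinocyte genes were lower in High than in Low, among them Krt15 (-7.88), Krt14 (-4.21), Col17a1 (-1.85) and Krt5 (-1.80), with sums of 5346 to 8187 CPM in High and 33690 to 34230 CPM in Low.

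Genes for proteins that tie keratin filaments to junctions and other partners were more often called lower than higher in High. Of 13 such genes measured, 2 were higher in High than in Low and 6 were lower, where 20.1% and 21.2% of all genes were, with a median log2 fold change of -0.26. Against MedLow 1 was higher and 6 lower, where 3167 and 3454 of all 17432 genes were. Against HiMed 1 was higher and 7 lower, where 10.6% and 11.6% of all genes were. The plakins, which anchor filaments, moved both ways, with Dst (-2.35) lower, Plec lower at 888 ± 35.0 CPM in High against 1781 ± 82.6 CPM in Low, and Ppl (0.92) higher, and the desmosomal plakophilin gene Pkp3 was lower (-0.69). Desmoplakin, Dsp, which anchors keratins at desmosomes, gave 0.05 and was not called, at 6433 ± 723 CPM in High and 6228 ± 697 CPM in Low.

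Transcription factors known to act on simple keratin genes moved both ways. Of 7 tested, Klf4 was higher in High than in Low (0.48), Tfap2a (-1.10) and Trp63 (-0.94, also on the basal list) were lower, and 4 were not called. Over all genes tested 20.1% were higher and 21.2% lower, and 1 and 2 of 7 are near those shares. Cdx1 and Cdx2, intestinal factors of which CDX1 is known to act on KRT20 in human cells, were at 0 in all 12 libraries, which over a bin allows up to 0.0284 CPM in Low and 0.0200 CPM in High (counting error only).

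The rest of the keratin family mostly fell. Of 48 other keratin symbols, 31 were tested, and in High over Low 6 were higher, 18 lower and 7 not called. Over all genes tested 20.1% were higher, near the 6 of 31, and 21.2% were lower. The other keratins had a median log2 fold change of -2.00, which was the same with genes at 0 set to their bounds. The largest rises were of Krt75 (7.22), known from the companion layer of hair follicles, at 3620 ± 453 CPM in High and 24.2 ± 5.58 CPM in Low, of Krt90 (6.99), and of the corneal keratin Krt12 (5.56). Per transcript length Krt75 stood at 2029.9 ± 227 TPM in High, above the mean of every simple keratin there. Among the falls, the hair-type keratins Krt32 and Krt33a and the root sheath keratin Krt73 were named by their fitted values, which are uncertain at 0 counts. All of them were at 0 in High and at least 809-fold, 57.7-fold and 58.0-fold lower than in Low, with 3 counts over the bin as the floor. Of keratins with counts in High, Krt36 (275-fold lower) and Krt15 (236-fold lower), chosen after their values were seen, were among those that fell by more than the bounds of Krt33a and Krt73. Others were Krt24, Krt76 and Krt84, at 239, 1206 and 142 CPM in Low and 1.25, 7.28 and 0.732 CPM in High.

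**Figure D5:**
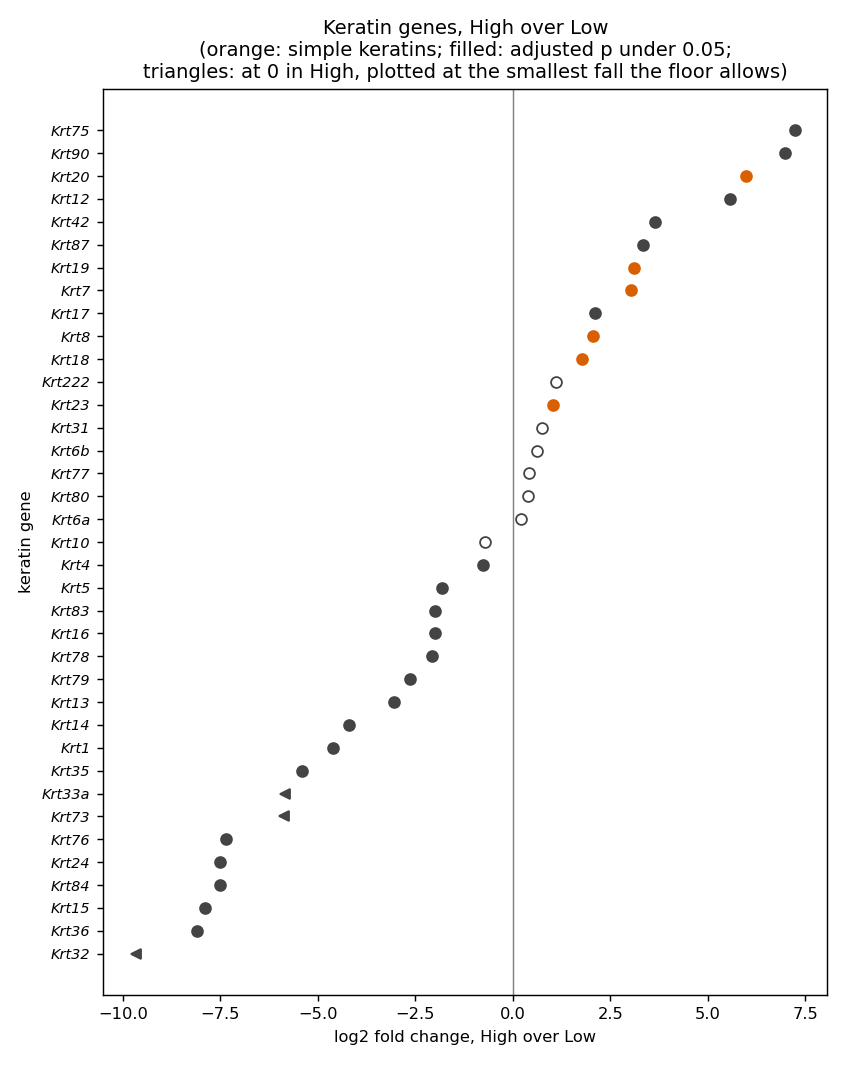
log2 fold changes of the tested keratin genes in High over Low, simple keratins in orange, filled where the adjusted p was under 0.05, with triangles for genes at 0 in High drawn at the smallest fall that 3 counts over the bin allow. All 6 simple keratins lie right of 0, from 1.03 for Krt23 to 5.98 for Krt20, and 18 other keratins are called left of it.

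Likeness between profiles was measured as the root mean square difference of log2 CPM over the 12 libraries, each gene centred on its own mean, among 14481 genes. Krt8 and Krt18 were the closest pair of the 6, at 0.182, and Krt20 and Krt23 the farthest apart, at 2.28. These are the adjacent gene pairs shown with their promoters, and the values describe 12 libraries that may share pools. The gene nearest to Krt8 was Mcf2l (0.0808), ahead of Krt18 and of the junction protein gene Amot (0.191). The nearest to Krt18 after Krt8 were Amot (0.199) and Hid1 (0.206).

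Each of the other genes had its own nearest profiles. Krt7 was closest to Rab4a, a gene of endosome recycling (0.188), Nav2 (0.228) and Ccdc33 (0.229). Krt19 was closest to the tight junction gene Marveld3 (0.246), the adhesion gene Cadm4 (0.253) and the lipid flippase gene Atp10b (0.253). Krt20 had no near twin, its closest being the chemokine gene Cxcl14 (0.368), the mucin glycosylation gene Gcnt3 (0.428) and Prr15 (0.497). Cxcl14 stood at 1421 ± 501 CPM in High and 20.8 ± 5.06 CPM in Low. Krt23 was closest to Ttc22 (0.249), Bpifc (0.263) and the mucin gene Muc15 (0.265).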

How the data were processed

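Gene expression was measured by sequencing of polyadenylated RNA (NuGen Universal Plus kit, NovaSeq, per the labels' protocols) in 12 libraries, 3 in each of 4 bins of Sox2-GFP brightness, grouped by the GFP level in the labels. Per the submitters' processing notes, Salmon 1.4.0, DESeq2 1.28.1 and the mouse build mm39 were named, without their roles. The sources used here give neither the annotation nor the way transcripts were combined per gene. The deposited expected counts per gene symbol are estimates, with 8.24 to 13.0% of values per library not whole, and how shared reads of near copies were split depends on that estimate. The deposited TPM values are scaled to the same total in every library, so they hold no depth.

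Before testing, expected counts were rounded to integers. The test was edgeR 4.0.16 (R 4.3.3) after filterByExpr with a minimum count of 10 (leaving out 35238 symbols with 0.034% of counts), with TMM scaling and a quasi-likelihood fit of all 12 libraries that held a term for each bin. P-values were adjusted by Benjamini-Hochberg over 17432 genes in each of 6 comparisons. SEs and 95% intervals are those the F statistic implies. Ratios and shares used the deposited TPM, without a test.

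Named besides the 6 members were, by rule, the 3 genes nearest to each in profile, up to 4 called genes per list, some reference genes and the 3 other keratins with the largest rise and fall. Dsp and Cd3e, Lum and other genes at 0 were added after their values were seen. The members and lists were chosen with earlier results of these data known. RefSeq promoters (GRCm38.p6) supplied sequence and position only; no coordinate comes from the deposited files.

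Replicate numbers were taken to pair libraries, since the series describes a replicate as mice whose cells were divided by brightness; the labels do not state that equal numbers mean equal pools. Over 10834 genes, deviations from bin means had correlations of 0.0304 to 0.354 between libraries of the same number (18 pairs, 17 above 0.1) and of -0.199 to 0.00598 between the 36 pairs of unequal number. Deviations from a bin mean cancel out within the bin, so positive values at the same number push those at unequal numbers down. These ranges are therefore not separate evidence of pairing. Alternatives were DESeq2 1.42.0, voom in limma 3.58.1, other scalings and filters, TPM on a log2 scale with a pseudocount, the replicate block, each pair of bins alone, each library left out and, added after seeing the data, robust dispersion shrinkage.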

Additional observations from a re-analysis of the deposited data

How the results depend on the processing

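The High over Low call of all 6 simple keratins held under every alternative, with adjusted p of at most 0.00609, and the counts of members higher in High than in MedLow and in HiMed stayed at 5. Of 864 recomputed log2 fold changes of single members, 828 kept direction and side of the threshold, 15 lost and 15 gained the call, and 6 reversed. All 6 were of Krt8 in HiMed over Low, never called: 0.0131 by library size only, 0.0728 in log2(TPM + 1) with and without the filter, 0.0732 in log2(TPM + 0.1), and a range of -0.1264 to 0.1302 with single libraries left out.

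Krt23 decided the counts of members lower in High. Against HiMed the count was 0 in log2(TPM + 1), log2(TPM + 0.1) and unfiltered TPM (adjusted p = 0.0807, 0.0811 and 0.156) and 0 to 1 with libraries left out. Against MedLow it was 1 in DESeq2's Wald test, without a filter, with the replicate block and with the compared bins alone (adjusted p = 0.0485, 0.0258, 0.0179 and 0.0119), and 0 to 1 with libraries left out (0.019 without HiMed replicate 1). Members lower in MedLow than in Low fell to 1, losing Krt8, in unfiltered TPM (0.0859) and with robust shrinkage, added after seeing the data (0.055), and ranged from 1 to 2 with libraries left out. Members higher there came to 3 with the replicate block, which changed no member's call beyond those given beside the results. Krt7 in HiMed over Low, at 0.0995, was called without a filter (0.0189), in log2(TPM + 1) (0.0149), log2(TPM + 0.1) (0.014) and unfiltered TPM (0.0371), with the replicate block (0.0162), with the compared bins alone (0.0424) and without High replicate 3 (0.045). The cause was not tested.

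Over all genes, 2352 were called in HiMed over MedLow, against 1526, 1512 and 1210 in log2(TPM + 1), log2(TPM + 0.1) and unfiltered TPM, and 1398 to 2556 with libraries left out. MedLow over Low had 1151, against 704, 663 and 588, and 677 to 1325. TPM moved the median of all genes in High over Low by 0.1446 (pseudocount 1) and 0.1796 (0.1), and in High over MedLow by 0.1581 and 0.1929, and in High over HiMed by 0.0903 and 0.1143. The share of calls that were higher, 47.7% to 54.7% in High over each other bin and in HiMed over MedLow, came to 63.7% to 72.4% in TPM, and to 65.7% in HiMed over MedLow by library size only. No called member changed sign under any of them. No sample-level count of cells was at hand, and 3 libraries a bin limit what small differences such as those of Krt8 and Krt18 between HiMed and Low can show.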

Other observations

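Besides Krt75, Krt90 and Krt12, the other keratins called higher in High than in Low were Krt17, Krt42 and Krt87, named here after their values were seen. Krt17, a keratin of activated and appendage epithelia, stood at 15782 ± 3124 CPM in High and 3650 ± 336 CPM in Low (log2 fold change 2.11, SE 0.14, edgeR adjusted p = 5.79e-08). Per transcript length it stood at 19685 ± 3583 TPM in High, against 4393 ± 1318 TPM for the sum of the 6 simple keratins there. Krt42 stood at 20.8 ± 6.54 CPM in High and 1.62 ± 0.785 CPM in Low, and Krt87 at 2.36 ± 0.410 CPM in High and 0.223 ± 0.195 CPM in Low.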
